A study of Homo sapiens with 6 samples.

Results

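Metallothioneins are small proteins rich in cysteine that bind zinc and copper, and their genes form a cluster on chromosome 16. All 9 of the genes chosen by symbol, MT1A, MT1E, MT1F, MT1G, MT1H, MT1M, MT1X, MT2A and MT3, were found among the 17100 transcripts of the count table. Their RNA was measured in MDA-MB-231 cells, an established human breast cancer cell line that lacks the hormone receptors and HER2. Guadecitabine (SGI-110), which releases the DNA methyltransferase inhibitor decitabine, was given at 1 µM for 96 h, and the cells then stayed untreated for 24 h before harvest. There were 3 guadecitabine and 3 vehicle libraries, numbered 1 to 3 in each group and described in the methods of the study as independent experiments. The comparison asked which members of the family were higher or lower in the drug-treated cells.

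In most cells metallothioneins buffer zinc and copper, and they sequester toxic metals such as cadmium. Their transcription is driven by MTF1, a zinc-sensing transcription factor that binds short metal response elements in the promoters, and it also responds to glucocorticoids and to oxidative stress. MT2A and the MT1 genes are used in many tissues, whereas MT3 is best known from the brain.

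The genes lie within 94842 bp, from 56623267 to 56718108 on chromosome 16 of hg19, and MT1G alone is on the minus strand. From the start of the cluster their order is MT3, MT2A (chr16:56642478-56643409), MT1E (chr16:56659585-56661024), MT1M (chr16:56666534-56667898), MT1A (chr16:56672578-56673999), MT1F (chr16:56691855-56693215), MT1G, MT1H and MT1X (chr16:56716382-56718108). In the GENCODE transcript closest to each counted transcript, every member has 3 exons. The encoded protein has 61 residues, or 68 in MT3, and 20 of them are cysteines in every member. The coding sequences of the 8 genes other than MT3 were identical at 88.5% to 95.1% of aligned bases in their 28 pairs, and the lowest value with MT3 included was 74.5%. The first 30 coding bases on GRCh37, the same assembly as hg19, are shown to make this similarity visible. Capitals mark the bases that differ from MT2A.
MT2A: atggatcccaactgctcctgcgccgccggt
MT1A: atggaCcccaactgctcctgcgccAcTggt
MT1E: atggaCcccaactgctcTtgcgccAcTggt
MT1F: atggaCcccaactgctcctgcgccgcTggt
MT1G: atggaCcccaactgctcctgTgccgcTggt
MT1H: atggaCcccaactgctcctgcgAGgcTggt
MT1M: atggaCcccaactgctcctgcAccAcTggt
MT1X: atggaCcccaactgctcctgcTcGCcTgTt
MT3: atggaCccTGaGACctGcCCcTGcCcTTCt

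Over this stretch MT1F differed from MT2A at 2 bases, MT1X at 6 and MT3 at 15. Reads from so similar genes could be assigned to the wrong member. Of all stretches of 50 bases within the exons of these transcripts, 100% occurred once in the genome for MT1A, MT1F and MT3. The share was 93.9% for MT1E, 91.2% for MT1H, 89.9% for MT1X, 89.4% for MT1G, 85.7% for MT1M and 85.4% for MT2A. Only exact matches of that length were searched, and the GENCODE exons of MT1E and MT3 differed from the counted transcripts by 198 and 176 bp. The read length, the treatment of reads with several matches and the use of strand are not given in the sources used here, so the count of any single member is uncertain. A sum of counts over the members does not change when a read is assigned to another of the 9, but it does change with reads lost to or gained from other loci.

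Metal response elements share a core of 7 bases, and TGCACNC and TGCGCNC were searched on both strands of the RefSeq promoters on GRCh38.p14, which run from 250 bases before the start to 50 bases after it. The table matched 3 of the 9 members, MT1H, MT1X and MT2A. At least 1 core was present in 29.6% of the 35116 promoters of this length. MT2A (chr16:56608334-56608633) held 8 cores, MT1H (chr16:56669564-56669863) also 8 and MT1X (chr16:56682220-56682519) 4, with all 3 genes on the plus strand, and 0.0199% of all promoters held 8 or more and 0.601% held 4 or more. The cores of the 2 expressed genes are printed in capitals, each in the direction in which it reads as the motif, in order along the promoter, and the number gives the bases from the start to the side of the core farther upstream.
MT2A, 246 bases before the start: ccgcTGCACCCagcc
MT2A, 168 bases before the start: gctcTGCACACgggc
MT2A, 153 bases before the start: cgggTGCGCCCggcc
MT2A, 139 bases before the start: ccagTGCGCGCggcc
MT2A, 88 bases before the start: tgccTGCACACgccc
MT2A, 54 bases before the start: ctttTGCACTCgtcc
MT2A, 8 bases before the start: gcgcTGCACTCcacc
MT2A, 30 bases after the start: aggtTGCACGCgggt
MT1X, 150 bases before the start: gcggTGCGCCCggcg
MT1X, 122 bases before the start: ttgcTGCACCCggcc
MT1X, 78 bases before the start: tcctTGCACCCgccc
MT1X, 53 bases before the start: cctcTGCGCCCggcc

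These matches are a description of letters and not of binding. The same promoters held 37 CG dinucleotides in MT2A, 26 in MT1X and 25 in MT1H, against a median of 14 over all promoters, and methylation was not analysed here.

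The libraries held between 8792127 and 22277442 counts, guadecitabine replicate 2 being the shallowest. Vehicle replicate 3 stood apart, with 20 transcripts at 0 counts against 1593 to 2517 in the other libraries. Among 1624 genes with at most 1 count in each of the other vehicle libraries and at most 2 in all guadecitabine libraries together, its median was 19 counts, or 7.96 counts per kb of counted exon. Every transcript of the table had at least 11 counts over the 6 libraries. Genes this low elsewhere are therefore present only with reads in vehicle replicate 3, so this median does not measure its background. The same selection bears on the numbers of transcripts at 0. Of the markers of the line, VIM had at least 32223 counts in every library, while ESR1 and PGR had at most 1 count in each library other than vehicle replicate 3, which had 67 and 43. GATA3 and EPCAM, expected to be low in the line, passed the filter. In bulk RNA a change in the number of expressing cells and a change per cell cannot be told apart.

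MT2A dominated the family in both groups, and the summed level of the family did not separate vehicle from guadecitabine cells. Levels between genes were compared as reads per kb, which are normalised counts per kb of exon sequence counted. MT2A had 52437 ± 13842 reads per kb in vehicle and 50287 ± 3970 in guadecitabine cells (SD, n = 3 each). Among all 17100 transcripts it ranked between 4 and 15 by reads per kb in every library. MT1E followed with 8449 ± 2066 and 6262 ± 1154 reads per kb, and MT1X with 3097 ± 647 and 2927 ± 39.9. The remaining members were well below these 3. MT1F had 270 ± 20.7 reads per kb in vehicle and 344 ± 26.2 in guadecitabine cells, and MT1A had 249 ± 64.6 and 407 ± 54.0. MT1F and MT1A overlapped in vehicle and were neighbours that did not differ beyond their spread there. MT1M had 27.2 ± 3.49 and 71.5 ± 7.20 reads per kb. MT1G, MT1H and MT3 were the lowest 3, with means between 5.91 and 26.7 reads per kb in either group, and their order did not hold beyond their spread.

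**Figure D1:**
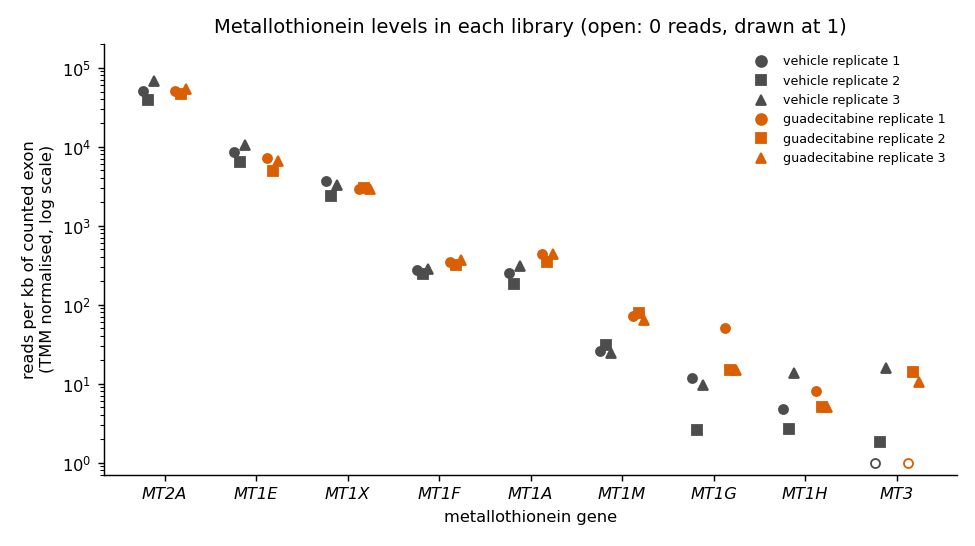
Reads per kb of counted exon (log axis) of the 9 metallothionein genes, ordered by their vehicle mean, in each of the 6 libraries (dark symbols vehicle, orange symbols guadecitabine, symbol shape the replicate number). MT2A lies highest in every library, and the 2 groups separate for MT1F, MT1A, MT1M and, with few reads, MT1G but not for MT2A, MT1E, MT1X, MT1H and MT3.

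The sum over the 9 genes, here per kb and so weighted by their lengths, was 63654, 48626 and 81372 reads per kb in vehicle replicates 1, 2 and 3, and 61945, 54759 and 64315 in guadecitabine replicates 1, 2 and 3. The guadecitabine libraries fell within the range of the vehicle libraries, whose lowest and highest values were those of replicates 2 and 3. The means were 64550 ± 16391 and 60340 ± 4977 reads per kb (SD, n = 3 each). In summed normalised counts, the ratio of guadecitabine to vehicle was 0.930. It was 1.07 without vehicle replicate 3 and 0.830 without vehicle replicate 2, so that it changed its side of 1 with a single library. MT2A contributed between 79.9% and 84.1% of the summed reads per kb in each library.

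MT2A, the most used member in human cells, did not pass the test. Its normalised counts were 21311, 16530 and 28073 in vehicle replicates 1, 2 and 3, and 21337, 19290 and 22585 in guadecitabine replicates 1, 2 and 3. The spread among the vehicle libraries covered all guadecitabine values. The log2 fold change was -0.06 (95% interval -0.45 to 0.33; adjusted p = 0.810, edgeR quasi-likelihood F test, adjusted by the method of Benjamini and Hochberg over all 13322 genes that passed the filter). The interval holds changes from 0.732-fold to 1.26-fold, and without vehicle replicate 3 the log2 fold change was 0.16. Across 292 tested genes with at most 600 bp of counted exon, the median deviation of vehicle replicate 3 from the other vehicle libraries was -0.01 on the log2 scale, against 0.58 for MT2A. The same short genes deviated by -0.21 in guadecitabine replicate 1 and by 0.16 in guadecitabine replicate 2 from the other guadecitabine libraries, where MT2A deviated by 0.03 and -0.19. All members have short exons, and the part of this shift in their values was not tested.

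MT1X, a member that responds to zinc, was likewise within the spread of the vehicle libraries. It had 1473, 963 and 1318 normalised counts in vehicle replicates 1, 2 and 3, and 1165, 1197 and 1186 in guadecitabine replicates 1, 2 and 3. Its log2 fold change was -0.08 (95% interval -0.42 to 0.26, adjusted p = 0.700 in edgeR). The 3 guadecitabine libraries lay within 1.03-fold of each other and the vehicle libraries within 1.53-fold.

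Of the 6 members that passed edgeR's filter on low counts, 2 were higher and 0 lower after guadecitabine at an adjusted p of 0.05, where 19.3% of all genes tested were higher and 18.4% lower. Both are members of low abundance, MT1A and MT1M. A share of 33.3% called in either direction is near the background of 37.7%. The median log2 fold change of the 6 was 0.15, against 0.02 over all genes tested. The count without vehicle replicate 3 was also 2 higher and 0 lower. It was 0 higher without vehicle replicate 1, vehicle replicate 2, guadecitabine replicate 1 or guadecitabine replicate 3, and 1 higher without guadecitabine replicate 2. Without vehicle replicate 2, MT1E was called lower.

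MT1M rose the most of the members tested. It had 12, 13 and 14 reads in vehicle replicates 1, 2 and 3 and 39, 17 and 28 in guadecitabine replicates 1, 2 and 3. In normalised counts these were 11.4, 13.7 and 10.8 in vehicle and 31.6, 34.6 and 28.3 in guadecitabine cells. Every guadecitabine library lay above every vehicle library, also for the shallow replicate 2. The log2 fold change was 1.38 ± 0.47 (standard error; 95% interval 0.31 to 2.45, adjusted p = 0.0461 in edgeR), or 2.61-fold. With so few reads the call was close to the threshold, and the adjusted p was 0.0245 with DESeq2, 0.0502 with library totals in place of TMM and 0.130 without the filter on low counts. With the replicate number as a block in edgeR it was 0.112. The adjusted p without 1 library was 0.131 (vehicle replicate 1), 0.113 (vehicle replicate 2), 0.145 (guadecitabine replicate 1), 0.153 (guadecitabine replicate 2) and 0.146 (guadecitabine replicate 3), and 0.00991 without vehicle replicate 3. The log2 fold change itself stayed between 1.30 and 1.49.

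MT1A, an MT1 isoform whose exon stretches of 50 bases each occur once in the genome, rose by less. Its normalised counts were 101, 71.8 and 123 in vehicle replicates 1, 2 and 3, and 174, 136 and 173 in guadecitabine replicates 1, 2 and 3. The highest vehicle library, replicate 3, was below the lowest guadecitabine library, replicate 2. The log2 fold change was 0.71 ± 0.22 (standard error; 95% interval 0.20 to 1.22, adjusted p = 0.0339 in edgeR), or 1.64-fold. The call was lost without vehicle replicate 1 (adjusted p = 0.0826, edgeR), vehicle replicate 2 (0.102), guadecitabine replicate 1 (0.0838) and guadecitabine replicate 3 (0.114). Without vehicle replicate 3 the log2 fold change was 0.91.

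MT1F had 123, 109 and 126 normalised counts in vehicle replicates 1, 2 and 3, and 151, 140 and 164 in guadecitabine replicates 1, 2 and 3. The groups did not overlap, but the log2 fold change of 0.35 (95% interval -0.02 to 0.72) did not pass the test (adjusted p = 0.120 in edgeR). In normalised counts MT1A, MT1F and MT1M were higher in every guadecitabine library than in every vehicle library (p = 0.1 each by exact permutation, two-sided, which is the lowest value 3 against 3 libraries can give). MT1G was so too, but it did not pass the filter, and in guadecitabine replicate 2 this rested on 3 reads. Among all genes tested, 51.7% had groups that did not overlap, and 26.6% had guadecitabine above vehicle, against 3 of the 6 members tested.

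MT1E, the second most abundant member, had the lowest log2 fold change of the 6. Its normalised counts were 4336, 3201 and 5289 in vehicle replicates 1, 2 and 3, and 3656, 2522 and 3327 in guadecitabine replicates 1, 2 and 3. Vehicle replicate 2 fell among the guadecitabine libraries. The log2 fold change was -0.43 (95% interval -0.87 to 0.01, adjusted p = 0.112 in edgeR), and the call was made without vehicle replicate 2 (log2 fold change -0.60, adjusted p = 0.0349). The value without vehicle replicate 3 was -0.25 (adjusted p = 0.279).

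**Figure D2:**
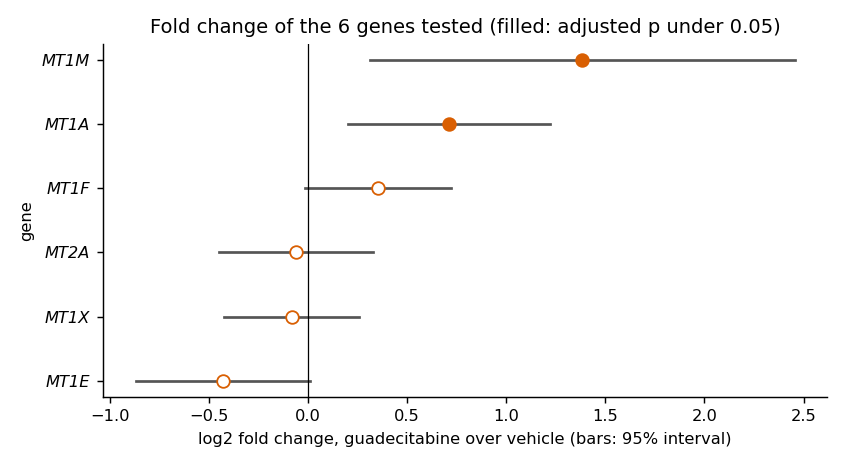
Log2 fold change of guadecitabine over vehicle (x axis) with its 95% interval for the 6 metallothionein genes tested, in edgeR's quasi-likelihood fit of 3 against 3 libraries. Filled points, MT1M at 1.38 and MT1A at 0.71, had an adjusted p under 0.05, and the intervals of MT1F, MT2A, MT1X and MT1E contain 0.

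The level of MT1E was also taken relative to MT2A in the same library, which takes out the scaling between libraries. MT1E had 16.8%, 16.03% and 15.6% of the reads per kb of MT2A in vehicle replicates 1, 2 and 3, and 14.2%, 10.8% and 12.2% in guadecitabine replicates 1, 2 and 3. All guadecitabine libraries were below all vehicle libraries (16.2% ± 0.634 against 12.4% ± 1.69; SD, n = 3 each; exact permutation, two-sided, p = 0.1, again the lowest possible). This measure was chosen after the values were seen, and 13% of all genes tested had a ratio to MT2A that was lower in every guadecitabine library. MT1X had 6.03% ± 1.15 of the level of MT2A in vehicle and 5.85% ± 0.519 in guadecitabine cells, and the groups overlapped. The ratios of MT1A, MT1F and MT1M to MT2A were above those of every vehicle library in every guadecitabine library, as were those of 16.9% of all genes. The ratio of the guadecitabine to the vehicle mean of MT1E over MT2A was 0.768, and it stayed between 0.712 and 0.816 with each library left out in turn.

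**Figure D3:**
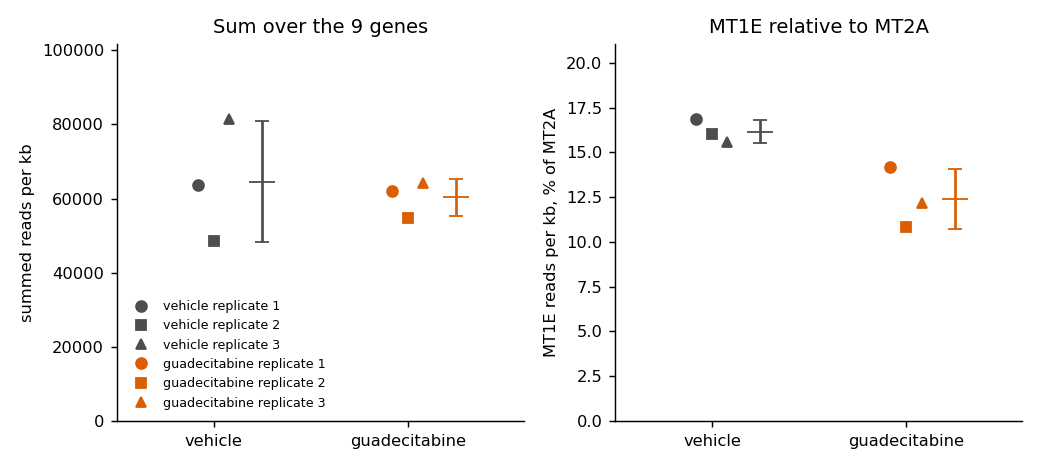
Left, summed reads per kb of the 9 metallothionein genes in each library, and right, MT1E reads per kb as a percent of MT2A, with the mean and SD of 3 libraries beside the points; both axes start at 0. The sum overlaps between groups, whereas MT1E relative to MT2A lies between 15.6% and 16.8% in vehicle and between 10.8% and 14.2% in guadecitabine libraries.

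MT1G, MT1H and MT3 had too few reads for the filter. MT1G, the minus-strand member, had 5, 1 and 5 reads in vehicle replicates 1, 2 and 3 and 25, 3 and 6 in guadecitabine replicates 1, 2 and 3. The value of 25 came from guadecitabine replicate 1 alone, and 3 reads in the shallow replicate 2 is at the floor of detection set at 3 counts. In the fit without a filter its log2 fold change was 1.73 (95% interval -1.32 to 4.78, adjusted p = 0.377 in edgeR). MT1H had 2, 1 and 7 reads in vehicle and 4, 1 and 2 in guadecitabine replicates 1, 2 and 3, and no difference was detectable at this depth. MT3, also called growth inhibitory factor, had 0, 1 and 12 reads in vehicle and 0, 4 and 6 in guadecitabine replicates 1, 2 and 3. The highest values of MT1H and MT3, 17.6 and 20.6 reads per kb before normalisation, were those of vehicle replicate 3, the library with reads on nearly every transcript, and its part in them was not tested. The floor covers counting error only.

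Outside the 9 genes, the table held MT1B, MT4 and MT1HL1 of 9 further metallothionein genes and pseudogenes looked up, and none passed the filter. MT1B had 1, 0 and 12 reads in vehicle replicates 1, 2 and 3 and 0 in each guadecitabine library. MT4, which is used in stratified epithelium, had 11 reads in vehicle replicate 3 and 0 in each of the others, the lowest total found in the table. MT1HL1, which lies on chromosome 1, had 1 to 10 reads in every library. A count of 0 allows up to 3 counts in a library.

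**Figure D4:**
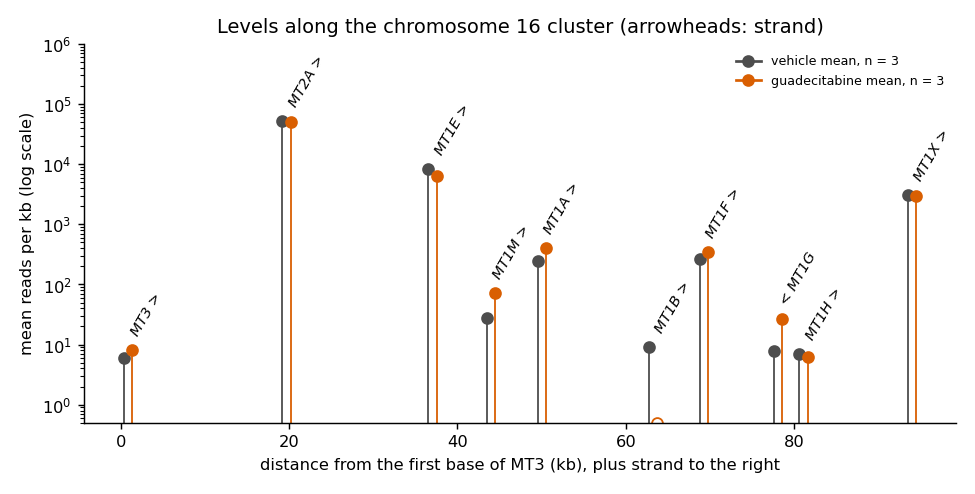
Mean reads per kb (log axis) of the 9 metallothionein genes and MT1B in vehicle and guadecitabine cells, against distance in kb from the first base of MT3; arrowheads after or before a name give the strand, and the open circle at the bottom is MT1B at 0 in guadecitabine cells. MT2A, MT1E and MT1X are the highest in both groups, and the members from MT1M to MT1H, which lie between MT1E and MT1X, are all lower.

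The 6 tested members did not move as one across the 6 libraries. Pearson's r between log2 normalised counts was 0.96 for MT1A with MT1F, 0.74 for MT1E with MT2A and 0.66 for MT1X with MT2A, and -0.74 for MT1E with MT1M. These values describe 6 libraries of 2 groups that share their depth and scaling. The 5 genes outside the family most like the log2 sum of the members, of 10440 compared over the 6 libraries, were ZNF384 (r = 0.98), FCHSD2 (0.98), RAC1 (0.97), COX7B (0.97) and TMEM248 (0.96). None of the 5 was called, and their log2 fold changes lay between -0.10 and -0.01.

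Around the cluster, 11 genes within 500 kb that are no metallothioneins were tested, and 2 were higher and 3 lower. OGFOD1, a prolyl hydroxylase gene, was higher by 0.51 on the log2 scale (adjusted p = 0.0210 in edgeR) and lies before MT3. NUP93, a nuclear pore gene, had 0.35 (adjusted p = 0.0471) and lies 45.9 kb after MT1X. GNAO1, a G protein alpha subunit gene, fell by 1.70 on the log2 scale (adjusted p = 0.00506), BBS2, a gene of the primary cilium, by 0.47 (0.0249) and NUDT21, a gene of mRNA cleavage, by 0.34 (0.0420). GNAO1 had 111, 96 and 303 reads in the vehicle replicates and 57, 19 and 49 in the guadecitabine replicates, in order. Its log2 fold change ranged from -1.90 to -1.18 with each library left out in turn. HERPUD1, NLRC5, CPNE2 and FAM192A, with log2 fold changes between -0.27 and 0.12, were not called. SLC12A3, a sodium chloride transporter gene, had 0, 1 and 83 reads in vehicle and 5, 5 and 16 in guadecitabine replicates 1, 2 and 3. It was not called with all libraries (log2 fold change -1.14, adjusted p = 0.549 in edgeR), and the sign turned without vehicle replicate 3 (3.96, adjusted p = 0.0167). The share called, 45.5%, was near the 37.7% of all genes. The calls were sensitive to single libraries: without guadecitabine replicate 3 the adjusted p was 0.0847 for OGFOD1, 0.209 for NUP93, 0.0748 for BBS2 and 0.149 for NUDT21. Without vehicle replicate 1 it was 0.0871 for OGFOD1, 0.136 for NUP93 and 0.132 for NUDT21, and without vehicle replicate 2 it was 0.0528 for OGFOD1, 0.141 for NUP93, 0.111 for BBS2 and 0.143 for NUDT21. Without guadecitabine replicate 1 it was 0.0718 for NUP93, and without guadecitabine replicate 2 it was 0.0554 for BBS2 and 0.115 for NUDT21.

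MTF1, the zinc sensor that drives metallothionein genes, was higher after guadecitabine. Its raw counts were 297, 263 and 409 in vehicle replicates 1, 2 and 3 and 560, 205 and 431 in guadecitabine replicates 1, 2 and 3, which gave means of 292 and 435 normalised counts with no overlap. The log2 fold change was 0.58 ± 0.11 (standard error; adjusted p = 0.00367 in edgeR), and it stayed between 0.54 and 0.64 with each library left out. SLC30A1, the zinc exporter of the plasma membrane and another known MTF1 target, had 402 and 528 normalised counts and a log2 fold change of 0.39 (adjusted p = 0.0158 in edgeR). Its adjusted p was 0.0510 without vehicle replicate 1, 0.0768 without vehicle replicate 2 and 0.0772 without guadecitabine replicate 3. SLC39A10, a zinc importer that MTF1 is known to repress, was not called (log2 fold change 0.21, adjusted p = 0.402).

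Of 11 tested zinc importers of the SLC39 family, 3 were higher and 1 lower (36.4% called), with a median log2 fold change of 0.11. The importer SLC39A14 had a log2 fold change of 0.76, SLC39A6 of 0.58 and SLC39A11 of -0.56 (adjusted p = 0.00473, 0.0184 and 0.0252 in edgeR). Without guadecitabine replicate 1, 2 importers were lower. Of 7 tested zinc exporters of the SLC30 family, 1 was higher, SLC30A1 (14.3%), and their median was 0.30. The number of exporters called higher was 0 without vehicle replicate 1, vehicle replicate 2 or guadecitabine replicate 3, 2 without vehicle replicate 3 and 3 without guadecitabine replicate 2, and 1 was lower without guadecitabine replicate 1. SLC39A11 was not called without vehicle replicate 1 (adjusted p = 0.112), vehicle replicate 2 (0.0903) or guadecitabine replicate 3 (0.106).

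In a list of 8 regulators of metallothionein genes, MTF1 among them, 1 was higher and 2 lower (37.5% called, against 37.7% of all genes). SP1, a factor of GC-rich promoters, fell by 0.49 on the log2 scale (adjusted p = 0.00672 in edgeR). NR3C1, the glucocorticoid receptor, fell by 0.44 (adjusted p = 0.0307), a call lost without vehicle replicate 1 (0.0991), vehicle replicate 2 (0.1003), guadecitabine replicate 2 (0.0826) and guadecitabine replicate 3 (0.116). Without guadecitabine replicate 2, 2 regulators were higher. Of 9 tested glucocorticoid targets, 4 were higher and 2 lower (66.7% called, against 37.7% of all genes), with a median of 0.35. Among those higher were DUSP1, a MAP kinase phosphatase, with a log2 fold change of 2.25 and NFKBIA, an inhibitor of NF-kB, with 1.20 (adjusted p = 9.72e-06 and 2.76e-05 in edgeR), and both have other known inducers.

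Copper handling genes were called in 6 of 11 tested (54.5%), 4 higher and 2 lower, with a median of 0.20. SLC31A2, a copper transporter gene, had a log2 fold change of 0.82, SCO1, a gene of copper delivery to cytochrome oxidase, of 0.59 and the copper chaperone ATOX1 of 0.60 (adjusted p = 0.000684, 0.00155 and 0.00271 in edgeR). The 2 lower were ATP7B at -1.21 and COMMD1 at -0.48 (adjusted p = 0.0223 and 0.0378 in edgeR). The number of copper genes called lower was 1 without vehicle replicate 1, vehicle replicate 2 or guadecitabine replicate 2, and 0 without guadecitabine replicate 1 or 3. Of 13 heat shock genes, a class with members that respond to metals as well as to heat, 4 were higher and 0 lower (30.8% called, median 0.27). Among the 4 were HSPH1 at 0.55, HSP90AA1 at 0.80 and HSPA8 at 0.48 (adjusted p = 0.00576, 0.0102 and 0.0120 in edgeR). The log2 fold change was positive in 9 of the 13. DNAJB1 and HSPB1 were at -0.24 and BAG3 at -0.21, without a call. CRYAB, at -0.50, was not called either and had vehicle reads only in replicate 3. Without vehicle replicate 1, 2 heat shock genes were higher, and HSPA8 was not called (adjusted p = 0.0515). HSP90AA1 was at 0.51 on the log2 scale without guadecitabine replicate 1. Of 11 tested glutathione and thiol genes, 4 were higher and 1 lower (45.5%, median 0.23). The lower gene was GPX4, at -0.50 (adjusted p = 0.0122 in edgeR). GCLC and GCLM, the subunits of the enzyme that starts glutathione synthesis, had log2 fold changes of 0.77 and 0.54, and the heme oxygenase gene HMOX1 of 0.41 (adjusted p = 0.00299, 0.00454 and 0.0114). HMOX1 was not called without guadecitabine replicate 3 (adjusted p = 0.0572), and 0 thiol genes were lower without vehicle replicate 2 or guadecitabine replicate 3. These shares were read against the 37.7% of all genes called in either direction, and no list was tested as a set.

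**Figure D5:**
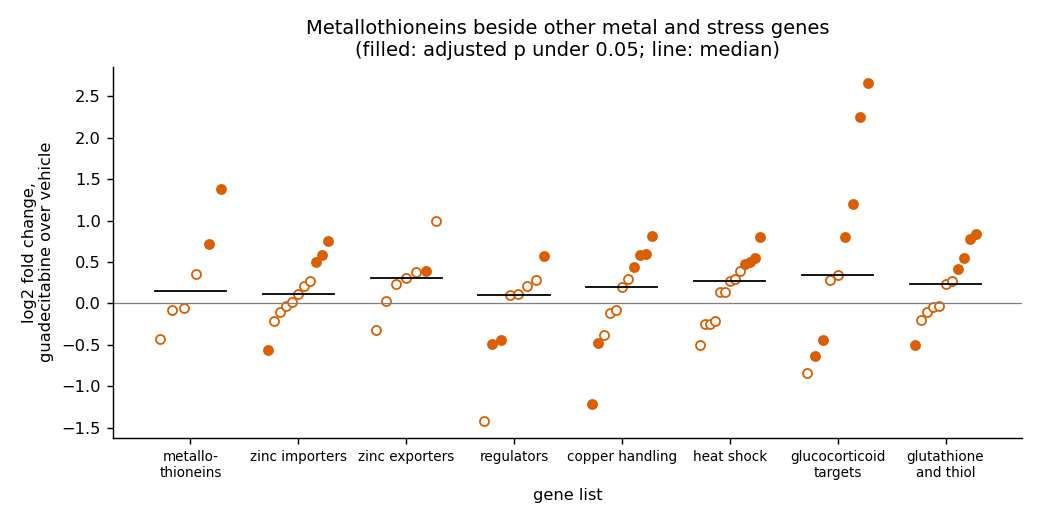
Log2 fold change (y axis) of every tested gene in the metallothionein list and 7 lists of metal and stress genes; filled points had an adjusted p under 0.05 in edgeR and the horizontal line is the median of the list. The medians lie between 0.11 and 0.35, and the metallothioneins span from -0.43 for MT1E to 1.38 for MT1M.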

How the data were processed

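RNA sequencing of 3 vehicle and 3 guadecitabine libraries was used, grouped by their titles. According to the submitters' processing notes and the study's methods, the aligner was STAR 2.3.1z with the hg19 build, and iRNA-seq gave the number of exonic reads for each RefSeq transcript. The authors deposited raw read counts without normalization, which were the values analysed. They also deposited regularized log2 values and their own DESeq2 comparison (log2 fold changes, p-values and a test statistic, which is a score), which were not used. The deposited starts count from 0 and 1 was added.

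The test was that of edgeR 4.0.16 under R 4.3.3 (TMM, filterByExpr with a minimum count of 10, quasi-likelihood test, Benjamini-Hochberg adjustment over the 13322 genes kept, adjusted p of 0.05). Normalised counts are counts over the effective library size, times 17911210, the mean total. Total counts ranged from 8792127 to 22277442. Standard errors were derived from the F statistic, and the confidence level was 95%. The code of the fit was also run on simulated counts, drawn with the dispersions fitted to these data. That run changed no gene with as few reads as MT1M, so it does not bear on such calls. DESeq2 1.42.0 served as an alternative, with the other settings given in the closing section. 0 pairs of libraries held the same counts. The p-values of the fit set a difference against the variation between these 3 libraries per group, which was estimated with information from all genes kept.

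Members and gene lists were chosen with earlier results of these data known. Genes were named by rule: all members, MTF1, SLC30A1 and SLC39A10, further metallothionein genes, genes within 500 kb, up to 3 called genes with the smallest p in each list, and the 5 genes most like the family sum among those with a mean count of at least 100. Uniqueness was computed over chromosomes of GRCh37 with GENCODE release 44 exons, using Python 3.11.15. RefSeq promoters matched 3 members. Some genes that this rule names are not reported here.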

Additional observations from a re-analysis of the deposited data

How the results depend on the processing

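Over 11435 genes, the same-numbered libraries did not deviate together from their group means (r = -0.16, 0.16 and -0.06 for replicates 1, 2 and 3). Of the 3 numbers, 1 matched its own number best. The summed reads per kb of the family were highest in replicate 3 and lowest in replicate 2 in both groups. With the replicate number as a block, 1 metallothionein gene was called higher and 1 lower, since MT1E passed (log2 fold change -0.42, adjusted p = 0.0323 from edgeR) and MT1M did not (1.39, adjusted p = 0.112). With library totals only, 1 member was higher and MT1M was at 1.42 without a call, and without a filter 1 was higher and MT1M was at 1.40 without a call. Testing against a fold of 2 left 696 genes, 435 higher and 261 lower, and 0 members, with MT1A at 0.71 and MT1M at 1.38. With each library left out in turn, between 3335 and 5577 genes were called, 1706 to 3002 higher and 1629 to 2575 lower. Between 0 and 2 members were higher and between 0 and 1 lower, with MT1A between 0.54 and 0.91, MT1M between 1.30 and 1.49 and MT1E between -0.60 and -0.25. The lowest counts of genes were those without guadecitabine replicate 3. SLC12A3 ranged from -1.71 to 3.96, the latter without vehicle replicate 3, where its sign reversed and it was called. MT1F, MT1X and MT2A were not called under any of the 13 alternatives. The ratio of the summed counts lay between 0.83 and 1.07 over 9 alternatives, and so on both sides of 1. The DESeq2 test and its size factors changed no call of a member. The cause of these changes was not tested. Members with under 10 counts in most libraries are limited by depth.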
